A study of Mus musculus with 6 samples.

Results

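Prostaglandins are lipid signals made in cells from arachidonic acid, and 10 mouse genes of their synthesis, breakdown and reception are described here out of the 56953 genes in the table. They were chosen by name, as Pla2g4a, Ptgs1, Ptgs2, Ptges, Ptges2, Ptgis, Hpgd, Ptger1, Ptger2 and Ptger4. The rule uses no measured value, but earlier results of these data were known when the genes were chosen. Bulk RNA was sequenced from cultured mouse embryonic fibroblasts (MEFs), a connective tissue cell type taken from embryos, in 3 WT libraries and 3 that carry the label GαqKO. The methods of the study describe the latter as Gαq/11 knock-out cells, which lack the alpha subunits of the G proteins that switch on phospholipase C beta, and both kinds of cells came from 1 collaborating laboratory. They grew in the same serum-containing medium with penicillin and streptomycin, without any further treatment. The design names 3 biological replicates per genotype but not whether the MEFs of a genotype came from 1 embryo, line or clone, so the p-values measure the spread between these libraries and cannot set genotype apart from line.

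The pathway begins when cytosolic phospholipase A2 frees arachidonic acid from membrane lipids. The cyclooxygenases turn it into the unstable prostaglandin H2, and terminal synthases then make prostaglandin E2 (PGE2), prostacyclin or another prostanoid from that shared substrate. PGE2 acts on the EP receptors, which are coupled to different G proteins, and a dehydrogenase inactivates it. In fibroblasts the inducible cyclooxygenase and the inducible PGE2 synthase are known as genes that answer to inflammatory cytokines.

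The values are normalized counts, which are reads per gene divided by a size factor of the library, and their totals lay between 11392429 and 11483486. Differences were tested with limma on log2(normalized count + 1) for the 14096 genes that reached 10 normalized counts in 3 or more libraries, and p-values were adjusted by the Benjamini-Hochberg method. On this scale the fold change of a low gene comes out too small. At the RNA level the targeted genes matched the label only in part. The study reported a lack of Gαq protein in its knock-out MEFs by Western blot and immunofluorescence, and RNA counts do not measure protein. Gnaq, which encodes Gαq, had 1665, 1660 and 1747 normalized counts in the WT libraries and 1960, 1931 and 1888 in the libraries labelled GαqKO, so it was not lower in them (log2 fold change 0.19, adjusted p = 0.00212, limma). Gna11, which encodes Gα11, had 2148 ± 29.0 in WT and 452 ± 28.7 in the libraries labelled GαqKO (mean ± SD, n = 3 libraries per group), and the log2 fold change was -2.25 (adjusted p = 9.16e-13, limma).

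The fibroblast label was checked on 9 markers. Their summed level was 84376 to 90131 normalized counts in WT and 61317 to 64522 in the libraries labelled GαqKO. Of these 9 markers 4 were higher and 5 lower. Among the higher ones, Pdgfra, the gene of the PDGF receptor alpha chain, was at 19.6 ± 2.2 in WT and 2320 ± 42.0 in the libraries labelled GαqKO, and Thy1 was at or near 0 in WT. Among the 5 lower ones, the collagen gene Col1a1 was at 16671 ± 1168 in WT and 5774 ± 272 in the libraries labelled GαqKO. The others were Fn1, Col1a2, Vim and Col3a1, with log2 fold changes of -0.73, -0.36, -0.32 and -0.18. The 6 epithelial markers summed to 515 to 541 in WT and to 10.1 to 23.1 in the libraries labelled GαqKO. Krt14 and Cdh1 carried most of this, while Epcam and Krt5 were near 0 in both groups. Krt8 was at 17.3 ± 11.7 in WT and 0.72 ± 0.63 in the libraries labelled GαqKO. Krt18 was at 14.5 ± 4.9 and 1.01 ± 0.95, and neither Krt8 nor Krt18 was tested. The 5 mural cell markers summed to 671 to 792 in WT and to 15.02 to 22.0 in the libraries labelled GαqKO, and nearly all of this was Mcam, with Rgs5, Myh11 and Kcnj8 near 0. The 6 macrophage markers summed to 210 to 220 in WT and to 438 to 471 in the libraries labelled GαqKO. The higher sum was carried by Cd14, at 102 ± 7.0 and 365 ± 3.2. Cd68 was lower, at 93.0 ± 9.9 and 66.9 ± 12.7, Csf1r did not pass the test, and Ptprc, Adgre1 and Fcgr1 were near 0 in both groups. The 6 endothelial markers summed to 14.6 to 29.2 and 21.6 to 40.5, and the 5 mast cell markers to at most 4.70. The endothelial and mast cell sums overlapped between the groups. The other sums did not, and their part in the results for the prostaglandin genes was not tested.

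Of the 10 genes, 7 entered the test and 3 did not. At an adjusted p under 0.05 (limma), 4 were higher in the libraries labelled GαqKO, namely Ptgs1, Ptgs2, Ptges and Ptger4, where 31.8% of all genes tested were higher. The only one lower was Ptgis, where 34.1% of all genes tested were lower. With a log2 fold change of over 1 in size also required, 3 remained higher, against 10.2% of all genes tested, and 1 remained lower, against 10.5%. Pla2g4a and Ptges2 did not pass the test. Only 5 of the 10 genes had at least 10 normalized counts in every library, and Ptges and Ptgis entered the test through the group in which they are high. In bulk RNA, fewer cells that express a gene and less RNA per cell cannot be told apart.

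**Figure D1:**
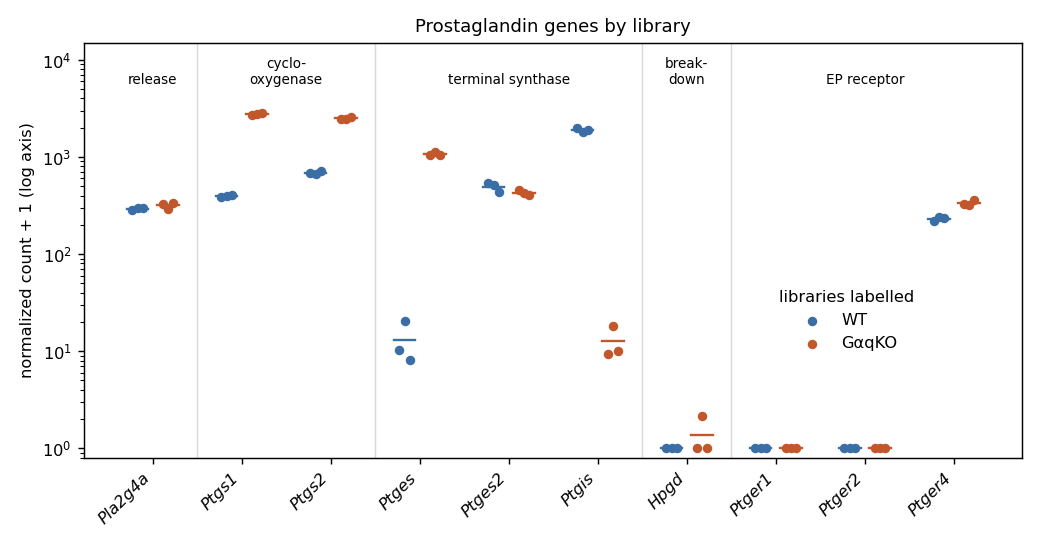
Normalized count plus 1 (log axis) of the 10 prostaglandin genes in each library, with 1 point per library and a line at the mean of the 3 libraries labelled WT or GαqKO. Ptgs1, Ptgs2 and Ptges lie higher in the libraries labelled GαqKO, Ptgis lies lower, Pla2g4a and Ptges2 overlap, and Hpgd, Ptger1 and Ptger2 lie at or near 0.

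The first step differed little. Pla2g4a (ENSMUSG00000056220.15, chr1:149705369-149837053, minus strand of GRCm39), which encodes the cytosolic phospholipase A2 that frees arachidonic acid, had 283, 299 and 295 normalized counts in the WT libraries and 326, 289 and 337 in the libraries labelled GαqKO. The groups overlapped, with 1 library labelled GαqKO below 2 of the WT libraries. The means were 292 ± 8.4 and 317 ± 25.2 (SD, n = 3), and the log2 fold change was 0.12 with a 95% interval of -0.07 to 0.30 (adjusted p = 0.258, limma). Pla2g4a and Ptgs2 are neighbours on chromosome 1, 138 kb apart, and only Ptgs2 passed the test.

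Of 21 other genes of arachidonate release, 9 were tested, of which 1 was higher and 5 were lower, beside 31.8% and 34.1% of all genes tested. The median log2 fold change of the 9 was -0.66, beside -0.01 over all genes tested. The 3 that passed the fold threshold were lower, beside 10.5% of all genes tested, and none of them is a classical phospholipase A2. All 3 entered the test through the WT libraries, in which they are high, so the filter left little room for another direction. Mgll, the monoacylglycerol lipase that frees arachidonic acid from 2-arachidonoylglycerol, was at 131 ± 8.1 in WT and 5.65 ± 4.2 in the libraries labelled GαqKO (log2 fold change -4.62, adjusted p = 1.26e-06, limma), and without GαqKO replicate 1 the log2 fold change was -3.89. Plaat3, a phospholipase A and acyltransferase, was at 85.2 ± 8.3 and 5.72 ± 1.6 (log2 fold change -3.70). Faah, the fatty acid amide hydrolase that cleaves anandamide, was at 76.4 ± 2.0 and 9.65 ± 2.3 (log2 fold change -2.89). None of these 3 genes overlapped between the groups, as held for 35.8% of all genes tested that were lower in each library labelled GαqKO.

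The opposing step, which returns arachidonate to lipids, was tested in 8 of 9 genes. Of these 5 were higher and 3 lower, beside 31.8% and 34.1% of all genes tested, with a median log2 fold change of 0.36. Lpcat2, a lysophosphatidylcholine acyltransferase, was the only one past the fold threshold and was lower, at 18.3 ± 3.2 in WT and 3.96 ± 2.5 in the libraries labelled GαqKO (log2 fold change -2.11, adjusted p = 0.00155, limma). Lpcat2 also entered the test only through WT. Among the 5 that were higher, named after their values were seen, were Acsl4, an acyl-CoA synthetase that prefers arachidonic acid, at 1000 ± 64.1 and 1859 ± 40.1, and Acsl5 at 518 ± 21.4 and 995 ± 43.7. The lower ones beside Lpcat2 were Lpcat3 and Mboat1, with log2 fold changes of -0.26 and -0.88.

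Both cyclooxygenase genes were higher in the libraries labelled GαqKO. Ptgs1 (ENSMUSG00000047250.14, chr2:36120438-36142287, plus strand), which encodes the constitutive cyclooxygenase COX-1, had 388, 391 and 404 normalized counts in the WT libraries and 2671, 2795 and 2864 in the libraries labelled GαqKO. The groups lay far apart, and the range within each was small beside the gap, while 33.8% of all genes tested were higher without overlap. The mean rose from 395 ± 8.3 to 2776 ± 98.0 (SD, n = 3), 7.03-fold, with a log2 fold change of 2.81 ± 0.05 (SE; 95% interval 2.70 to 2.92; adjusted p = 3.44e-14, limma). By size of the log2 fold change it was the 977th of the 14096 genes tested.

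Ptgs2 (ENSMUSG00000032487.9, chr1:149975194-149983978, plus strand), which encodes the inducible cyclooxygenase COX-2, had 683, 662 and 720 normalized counts in the WT libraries and 2439, 2469 and 2559 in the libraries labelled GαqKO. Each library labelled GαqKO was above each WT library, as held for 33.8% of all genes tested. The mean rose from 688 ± 29.4 to 2489 ± 62.6, 3.62-fold, with a log2 fold change of 1.85 ± 0.05 (SE; 95% interval 1.75 to 1.96; adjusted p = 1.62e-12, limma). It was the 1560th by size.

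An antisense gene crosses the start of Ptgs2, and 9.29% of the exon bases of Ptgs2 lie in exons of other genes. This gene, Ptgs2os (chr1:149909888-149975714, minus strand), had 116.9, 105.9 and 130.3 normalized counts in the WT libraries and 236, 314 and 306 in the libraries labelled GαqKO. It was higher as well, at 118 ± 12.2 and 285 ± 43.3 (log2 fold change 1.26, adjusted p = 1.42e-06, limma), and it was named after its values were seen. The library kit kept the strand, but the strand setting of the counting is not stated in the sources used here, and reads of the overlap cannot be told apart without it. Ptgs2os2, a further antisense gene on the other side of Ptgs2 (chr1:150034388-150040866, minus strand) that does not overlap it, was at 58.3 ± 8.3 in WT and 576 ± 15.9 in the libraries labelled GαqKO (log2 fold change 3.29, adjusted p = 2.88e-11, limma).

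Levels of different genes were compared per kb of exon. Ptgs1 went from 102 ± 2.1 to 714 ± 25.2 normalized counts per kb and Ptgs2 from 134 ± 5.7 to 486 ± 12.2, so the order of the pair turned. Ptgs2 made up 57.2, 56.2 and 57.5% of the cyclooxygenase transcripts in the WT libraries and 40.9, 40.1 and 40.4% in the libraries labelled GαqKO. The mean share was 56.9% ± 0.67 in WT and 40.5% ± 0.41 in the libraries labelled GαqKO (SD, n = 3), and the groups did not overlap.

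The last step before PGE2 showed the largest rise among the 10 genes. Ptges (ENSMUSG00000050737.14, chr2:30779483-30820196, minus strand), which encodes the inducible microsomal PGE2 synthase mPGES-1, had 9.4, 19.4 and 7.1 normalized counts in the WT libraries and 1038, 1115 and 1044 in the libraries labelled GαqKO. The lowest library labelled GαqKO was far above the highest WT library, WT replicate 2. Ptges entered the test through the libraries labelled GαqKO, so the filter left little room for another direction. The mean rose from 11.98 ± 6.5 to 1066 ± 42.7, 88.9-fold, with a log2 fold change of 6.47 ± 0.25 (SE; 95% interval 5.93 to 7.02; adjusted p = 5.65e-11, limma), and it was the 124th of the genes tested by size.

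The bases before the start of 2 of the genes that were higher together are shown, since Ptgs1 and Ptges are the cyclooxygenase and the PGE2 synthase with the larger changes. They are from the RefSeq promoter sequences (GRCm38.p6), which held 3 of the 4 genes past the fold threshold, Ptgs1, Ptgs2 and Ptges but not Ptgis, placed by exact match on GRCm39, and run 5′ to 3′ on the strand of the gene. Both end just before the annotated start of the canonical transcript in GENCODE, which for Ptges lies inside the span of the gene, since other transcripts of Ptges start further upstream. Capitals mark matches, on either strand, to GGGCGG (the GC box), the only one found here of the motifs searched. The window of Ptgs1 is chr2:36120188-36120437 on the plus strand, and that of Ptges is chr2:30793356-30793559 on the minus strand.
Ptgs1: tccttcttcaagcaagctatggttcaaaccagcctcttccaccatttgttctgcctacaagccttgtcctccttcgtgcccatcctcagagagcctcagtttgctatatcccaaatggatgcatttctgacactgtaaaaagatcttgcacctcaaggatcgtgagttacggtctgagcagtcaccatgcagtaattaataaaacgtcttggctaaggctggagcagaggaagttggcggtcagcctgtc
Ptges: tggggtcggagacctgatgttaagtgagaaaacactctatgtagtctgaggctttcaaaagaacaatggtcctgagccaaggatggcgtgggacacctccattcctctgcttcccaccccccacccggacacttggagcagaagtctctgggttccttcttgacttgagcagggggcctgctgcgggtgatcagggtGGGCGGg
The motifs searched were, beside the GC box, the TATA box spelled TATAAA, the core of the cAMP response element spelled TGACG, the E-box spelled CACGTG, the site of AP-1 factors spelled TGANTCA, the site of EGR factors spelled GCGGGGGCG and the site of C/EBP factors spelled TTGCNNAA. Letters of the GC box and the EGR site can overlap. The GC box of Ptges lies at 53 to 48 bases before the RefSeq start, and the remaining bases of that window, which lie in the annotated first exon and are not printed, hold a further GC box at 42 to 37. A GC box is in 32.7% of the 32851 RefSeq windows of 250 bases, so a match is common. The window of Ptgs1 held none of the motifs, of which TATAAA is in 12.4% of windows and TGACG in 17.8%. The RefSeq window of Ptgs2 (chr1:149975532-149975781) lies whole in annotated exon of Ptgs2 and is not printed, and it holds 1 GC box and 1 match to TTGCNNAA, which is in 9.56% of windows. A match is a description of the letters, and the matches depend on which annotated start is used.

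**Figure D2:**
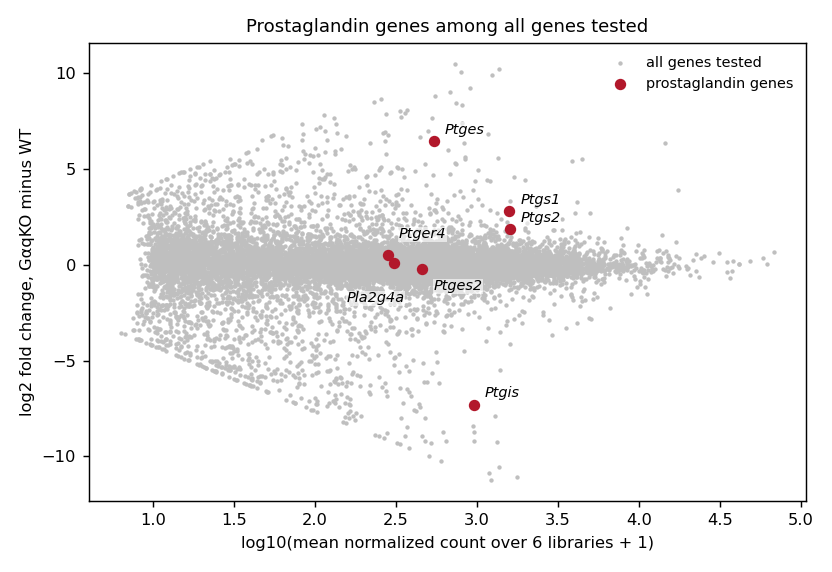
Log2 fold change (libraries labelled GαqKO minus WT) against the log10 of the mean normalized count plus 1 over 6 libraries, with all 14096 genes tested in grey and the 7 tested prostaglandin genes in red. Ptges at 6.47 and Ptgis at -7.30 lie at opposite edges of the cloud, Ptgs1 and Ptgs2 lie at 2.81 and 1.85 in its upper part, and Pla2g4a, Ptges2 and Ptger4 lie near 0.

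The other PGE2 synthases did not show such a change. Ptges2 (ENSMUSG00000026820.6, chr2:32285659-32295786, plus strand), which encodes the membrane-associated synthase mPGES-2, had 539, 508 and 432 normalized counts in the WT libraries and 453.5, 424 and 402 in the libraries labelled GαqKO. The groups overlapped at WT replicate 3, which lay below the highest library labelled GαqKO. The means were 493 ± 55.2 and 427 ± 25.9, and the log2 fold change of -0.20 (95% interval -0.39 to -0.02) did not pass the test (adjusted p = 0.0549, limma). The call rested on the settings, since without WT replicate 3 it was -0.30 (adjusted p = 0.00558) and without GαqKO replicate 1 it was -0.25 (adjusted p = 0.0485). Ptges3, which encodes the cytosolic synthase and co-chaperone p23, was at 2037 ± 74.2 in WT and 1653 ± 137 in the libraries labelled GαqKO (log2 fold change -0.30, adjusted p = 4.66e-04, limma), but with the median of each chromosome removed it was -0.03 (adjusted p = 0.719), and all its exon bases lie in spans of other genes.

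Ptgis was the only one of the 10 genes that was lower. Ptgis (ENSMUSG00000017969.14, chr2:167033725-167083018, minus strand), which encodes prostacyclin synthase, had 1996.5, 1813 and 1899 normalized counts in the WT libraries and 8.5, 17.3 and 9.1 in the libraries labelled GαqKO. The groups lay far apart, and the libraries labelled GαqKO were near the minimum of 10 that the filter on low values uses. Ptgis entered the test through WT, so the filter left little room for another direction. The mean fell from 1903 ± 92.0 to 11.6 ± 5.0, 164-fold, with a log2 fold change of -7.30 ± 0.20 (SE; 95% interval -7.74 to -6.87; adjusted p = 1.95e-12, limma). It was the 70th of all genes tested by size. In WT it was the most abundant of the 10 genes per kb of exon, at 532 ± 25.7 normalized counts per kb, and in the libraries labelled GαqKO it was at 3.25 ± 1.4.

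The composition of the synthases thus differed between the groups. Of the normalized counts per kb of Ptges, Ptges2, Ptges3 and Ptgis, Ptgis held 34.9% ± 0.75 in WT and 0.31% ± 0.15 in the libraries labelled GαqKO, and Ptges held 0.18% ± 0.10 and 23.1% ± 2.0 (SD, n = 3). Ptges3 was the largest share in each group, at 60.1% ± 0.35 and 70.6% ± 2.5, and Ptges2 held 4.74% ± 0.43 and 5.96% ± 0.51. Neither Ptgis nor Ptges shares overlapped between the groups.

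**Figure D3:**
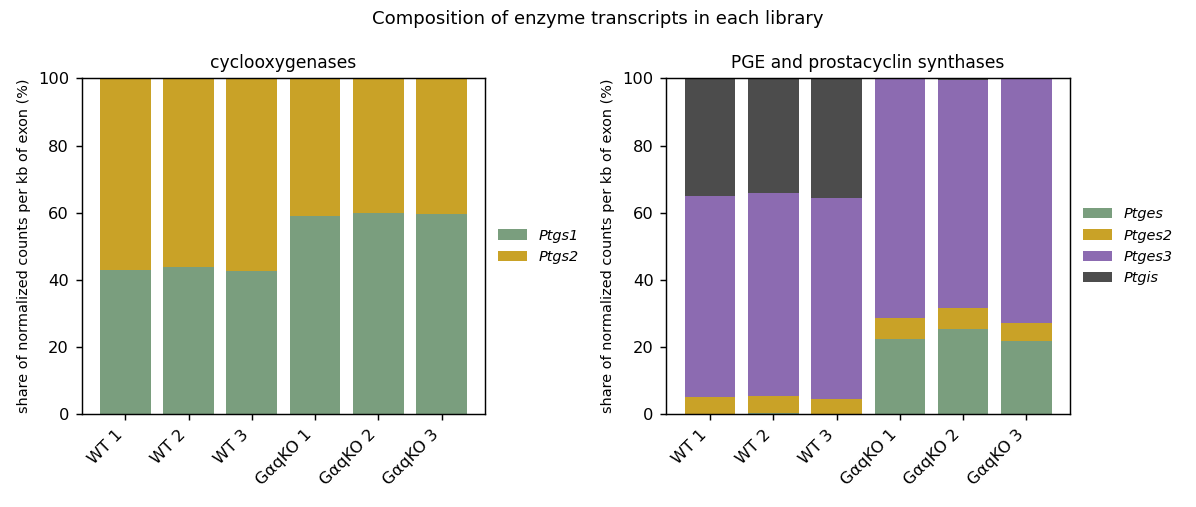
Share (%) of normalized counts per kb of exon in each of the 6 libraries, for Ptgs1 and Ptgs2 (left) and for Ptges, Ptges2, Ptges3 and Ptgis (right), with 1 stacked bar per library. Ptgs2 goes from 56.9% to 40.5% of the cyclooxygenases, and Ptgis and Ptges trade places from 34.9% to 0.31% and from 0.18% to 23.1% of the synthases.

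Of 9 other prostanoid synthase genes, 5 were tested, and 4 of these were lower and none higher, beside 34.1% and 31.8% of all genes tested. Their median log2 fold change was -1.001. Past the fold threshold 3 were lower, beside 10.5% of all genes tested. All 3 entered the test through the WT libraries, in which they are high, so the filter left little room for another direction. Of the 3, 2 are carbonyl reductases, enzymes that can convert PGE2 to PGF2 alpha. Cbr1 was at 337 ± 42.2 in WT and 6.18 ± 1.7 in the libraries labelled GαqKO, 54.5-fold lower (log2 fold change -5.58, adjusted p = 6.84e-11, limma). Its neighbour Cbr3 was at 148 ± 20.5 in WT while all 3 libraries labelled GαqKO listed it at 0, which makes it at least 49.4-fold lower against a floor of 3 counts per library. Tbxas1, the thromboxane synthase, was at 16.2 ± 2.3 and 7.98 ± 3.3 (log2 fold change -1.001, adjusted p = 0.0345, limma), a call that was lost in 8 of the alternatives, for example at -0.70 (adjusted p = 0.124) without GαqKO replicate 2. Cbr2, a further carbonyl reductase, did not pass the test, at 44.0 ± 7.2 and 40.1 ± 7.0.

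Hpgd (ENSMUSG00000031613.10, chr8:56747543-56774082), which encodes the dehydrogenase that starts the inactivation of PGE2, was listed at 0 in 5 libraries and at 1.2 normalized counts in GαqKO replicate 2. It was at or under the floor of 3 counts in each library and was not tested. None of its exon bases lies in the span of another gene. A difference in Hpgd was therefore not detectable at this depth.

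The 5 genes of prostanoid transport and breakdown beside Hpgd were all tested. Of these 4 were lower and 1 higher, beside 34.1% and 31.8% of all genes tested, with a median log2 fold change of -1.42. Abcc4, an efflux pump that exports prostaglandins, was among the lower genes (log2 fold change -0.53). Slco2a1, the prostaglandin transporter that brings PGE2 into cells, was at 53.5 ± 2.3 in WT and 19.8 ± 5.2 in the libraries labelled GαqKO (log2 fold change -1.42, adjusted p = 1.92e-04, limma). Ptgr1 and Ptgr2 encode prostaglandin reductases, which act after Hpgd. Ptgr1 was at 113 ± 8.5 and 36.3 ± 8.0 (log2 fold change -1.63, adjusted p = 6.43e-06, limma), and Ptgr2 at 51.9 ± 12.4 and 3.03 ± 0.72 (log2 fold change -3.71, adjusted p = 3.75e-07, limma). Ptgr2 entered the test only through WT, in which it is high. The gene that was higher, named after its values were seen, was Ptgr3, a further prostaglandin reductase, at 1158 ± 13.6 and 2266 ± 20.8 (log2 fold change 0.97).

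Of the EP receptor genes, Ptger4 was the only one with counts above the filter. Ptger4 (ENSMUSG00000039942.16, chr15:5236142-5273673, minus strand), which encodes the EP4 receptor that raises cAMP, had 218, 239 and 233 normalized counts in the WT libraries and 329.6, 316 and 355.5 in the libraries labelled GαqKO. Each library labelled GαqKO was above each WT library, as held for 33.8% of all genes tested. The mean rose from 230.1 ± 10.7 to 334 ± 20.2, 1.45-fold, with a log2 fold change of 0.53 ± 0.09 (SE; 95% interval 0.34 to 0.72; adjusted p = 1.12e-04, limma). The median log2 fold change of chromosome 15 was 0.16, and with the median of each chromosome removed Ptger4 was at 0.39 (adjusted p = 0.00163, limma). Of its exon bases 17.3% lie in exons of other genes and 49.9% inside the spans of other genes. Whether this lowered its counts was not tested.

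Ptger1 (ENSMUSG00000019464.7, chr8:84393264-84399384) and Ptger2 (ENSMUSG00000037759.7, chr14:45225652-45241277), which encode the calcium-linked EP1 and the cAMP-raising EP2 receptor, were listed at 0 in all 6 libraries. All exon bases of both genes lie inside the spans of other genes, and 78.2% of those of Ptger1 lie in exons of other genes. Of 2000 protein-coding genes placed like this, 65.8% were listed at 0 in all libraries, against 29.9% of 8745 without any such exon. Whether the counting set these genes to 0 was not tested, so their listing at 0 is no measure of absence. Ptger3, the gene of the cAMP-lowering EP3 receptor, was at 0 to 1.9 normalized counts in WT and 2.8 to 4.6 in the libraries labelled GαqKO and was not tested.

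Of the receptors for other prostanoids, Ptgfr and Ptgir were tested. Ptgfr passed the filter only through the libraries labelled GαqKO and Ptgir lay at its limit in WT, so the filter left little room for another direction. Ptgfr, the receptor of PGF2 alpha that couples to the Gq class, was at 1.0 to 2.9 normalized counts in the WT libraries and 247, 219 and 236 in the libraries labelled GαqKO. In reads, 5 were counted over the 3 WT libraries and 452 over 2 libraries labelled GαqKO, a ratio of 139 after scaling with a 95% interval of 59.2 to 430.5 that covers counting error only. Ptgir, the prostacyclin receptor that couples to Gs, was at 10.4, 9.7 and 10.2 in the WT libraries and 173, 186 and 196 in the libraries labelled GαqKO. This was 18.3-fold higher, from 10.1 ± 0.37 to 185 ± 11.8 (log2 fold change 4.06, adjusted p = 4.61e-10, limma), so that the receptor and the synthase of prostacyclin differed in opposite directions. Per kb of exon, Ptgir was at 55.2 ± 3.5 and Ptger4 at 50.1 ± 3.0 in the libraries labelled GαqKO, where their ranges overlapped, while in WT they were at 3.02 ± 0.11 and 34.6 ± 1.6. Ptgdr was listed at 0, and Ptgdr2 and Tbxa2r were under the filter on low values.

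**Figure D4:**
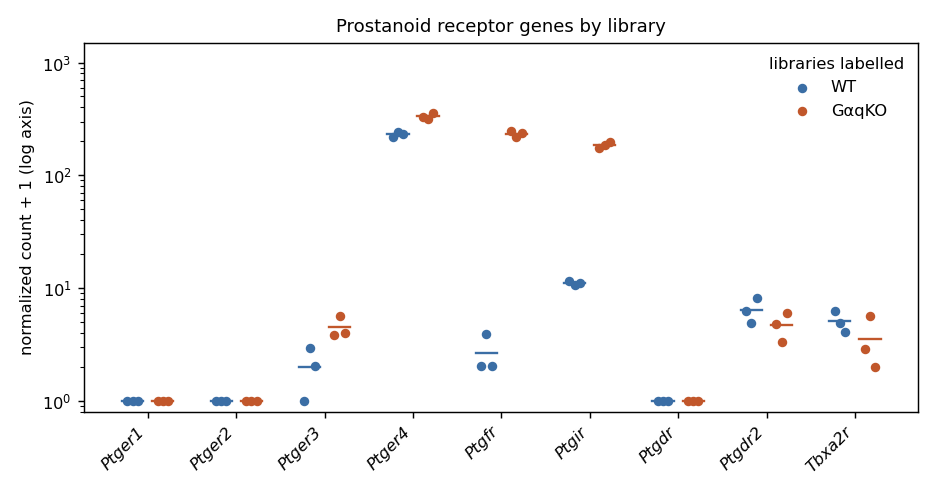
Normalized count plus 1 (log axis) of 9 prostanoid receptor genes in each library, with 1 point per library and a line at the group mean. Without correction for length, Ptger4 has the highest counts in both groups, Ptgfr and Ptgir lie at 219 to 247 and 173 to 196 normalized counts in the libraries labelled GαqKO and far lower in WT, and the others lie near 0.

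Downstream of EP2 and EP4, 28 of 36 genes of the cAMP arm were tested, and 14 were higher and 7 lower, beside 31.8% and 34.1% of all genes tested, with a median log2 fold change of 0.20. Past the fold threshold 7 were higher and 2 lower, beside 10.2% and 10.5% of all genes. The largest changes were in phosphodiesterases, which break down cAMP. Pde3b was at 81.4, 96.2 and 84.5 normalized counts in the WT libraries and 1879, 1953 and 1721 in the libraries labelled GαqKO, a 21.2-fold rise (log2 fold change 4.39, adjusted p = 5.69e-14, limma). Pde4b went the other way, from 213 ± 22.9 to 30.3 ± 2.7 (log2 fold change -2.77, adjusted p = 3.29e-09, limma). Prkar2b, a regulatory subunit of protein kinase A, rose from 813 ± 74.9 to 3137 ± 70.2 (log2 fold change 1.95), and Adcy3, an adenylyl cyclase, from 109 ± 21.8 to 348 ± 51.4 (log2 fold change 1.67).

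Of 26 genes listed as regulators of Ptgs2 or of its RNA, 22 were tested. The list mixes inducers with genes that can act against Ptgs2, so counts by direction are no measure of induction. Of the 22, 11 were higher and 7 lower, beside 31.8% and 34.1% of all genes tested. Their median log2 fold change was 0.14. Only 1 passed the fold threshold. Egr1, an immediate early transcription factor, fell from 3127 ± 60.2 to 1373 ± 29.3 (log2 fold change -1.19, adjusted p = 2.68e-11, limma), in the direction opposite to Ptgs2. Named after their values were seen, Jun at 2214 ± 94.0 and 3813 ± 68.9, Cebpb at 780.1 ± 53.5 and 1260 ± 39.6 and Nfkb1 at 1345 ± 122 and 2132 ± 57.8, which encode transcription factors, were higher with log2 fold changes of 0.78, 0.69 and 0.67. Other transcription factor genes of the list were lower, with log2 fold changes of -0.86 for Fos (adjusted p = 0.0333, limma), -0.36 for Rela and -0.22 for Creb1.

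The branches that draw on the same arachidonate for leukotrienes and other products were largely under the filter on low values, with 4 of 18 genes tested. Of these 2 were higher and 1 lower, beside 31.8% and 34.1% of all genes tested, and the median log2 fold change was 0.59. Mgst2, a microsomal glutathione transferase that can make leukotriene C4, was at 1.0 to 6.3 normalized counts in WT and 110 to 130 in the libraries labelled GαqKO. Mgst2 entered the test only through the libraries labelled GαqKO. In reads the ratio was 45.4 with a 95% interval of 22.7 to 106 for counting error only, and the log2 fold change of 5.27 was 5.89 without WT replicate 1. Its relative Mgst3 rose from 39.3 ± 3.9 to 109.6 ± 6.9 (log2 fold change 1.46, adjusted p = 4.40e-06, limma).

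**Figure D5:**
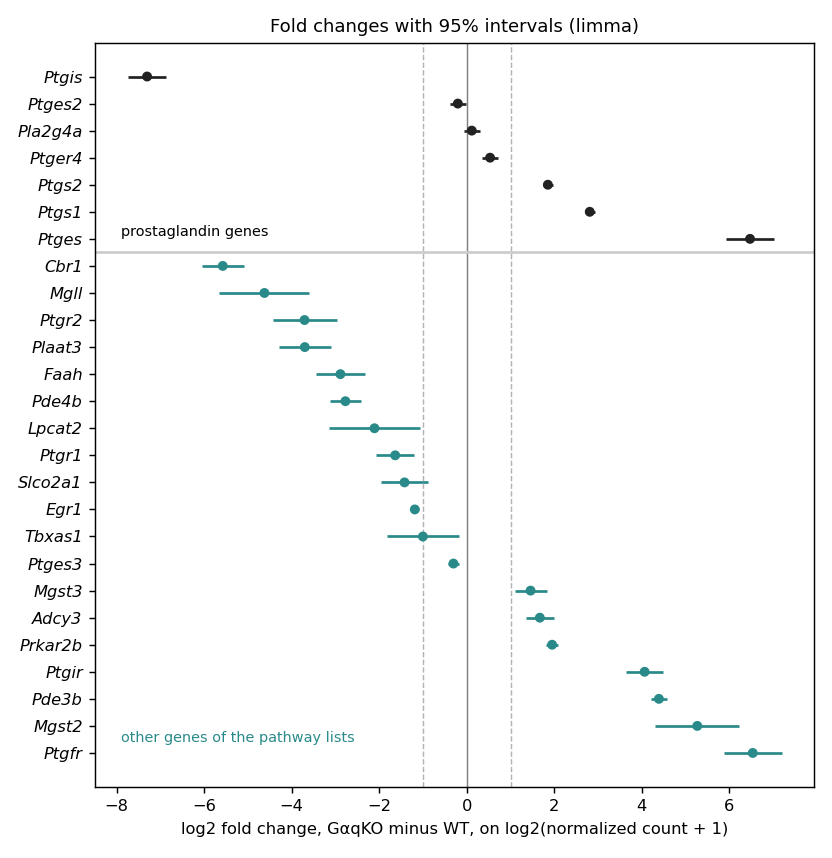
Log2 fold change (libraries labelled GαqKO minus WT, on log2(normalized count + 1)) with its 95% interval from limma, for the 7 tested prostaglandin genes (black) and other genes of the pathway lists (teal), with dashed lines at -1 and 1. Cbr3 is left out since it was listed at 0 in 1 group, and the intervals of Pla2g4a (-0.07 to 0.30) and Ptgis (-7.74 to -6.87) show the smallest and the largest change of the 7.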

How the data were processed

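Bulk RNA was measured in 6 libraries of MEFs, 3 per genotype label. The authors prepared libraries with a stranded mRNA kit, aligned paired-end reads to GRCm39 with Rbowtie2, assigned them to genes of GENCODE release 32 with featureCounts, and deposited a signal of gene counts divided by a size factor per library, as the values show. Tool versions and the strand setting are not given in the sources used here. Symbols came from GENCODE release 39 of the same build and matched 98.9% of the identifiers, and overlaps with other genes were counted on that release.

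The main test was limma, with the pseudocount of 1, a prior spread that follows the mean level, and no covariates. It replaced the study's DESeq2, which needs counts. In 5 libraries 100% of the values were multiples of 1 step (tolerance 0.001), the worth of a single read. This gave 9853000 to 12229175 reads per library, on which edgeR and DESeq2 served as alternatives. GαqKO replicate 3 was left out of these fits, since its reads could not be recovered in the same way. The 95% intervals of log2 fold changes are limma's and rest on the spread between libraries, while those of read ratios and the floors (3 counts) cover counting error only. Levels were compared between genes per kb of exon. The thresholds were an adjusted p under 0.05 and a log2 fold change over 1 in size. Each leave-one-out fit asked for 10 normalized counts in as many libraries as the smaller group holds, a choice made after seeing the data, as was the use of RefSeq starts for the promoters.

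The members and the gene lists were chosen with earlier results of these data known. Named genes were the members, Gnaq and Gna11, in each list up to 4 genes past both thresholds with groups that do not overlap, by size of the log2 fold change, and Ptges3 and Ptger3. Other genes were named after their values were seen. Replicate numbers did not pair the libraries. On simulated data, limma recovered 200 of 200 changed genes among 13990 tested, with 13 false calls. The tools were limma 3.58.1, DESeq2 1.42.0 and edgeR 4.0.16 in R 4.3.3, and matplotlib 3.10.9 in Python 3.11.15.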

Additional observations from a re-analysis of the deposited data

How the results depend on the processing

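Ptgs1, Ptgs2, Ptges and Ptger4 stayed higher in the libraries labelled GαqKO, and past the adjusted p of 0.05, under each alternative run that tested them, and Ptgis stayed lower. The filter of at least 10 normalized counts in every library did not test Ptges and Ptgis. Pla2g4a passed under none. The exception was Ptges2, which passed as lower with a pseudocount of 5 (log2 fold change -0.20, adjusted p = 0.0475), with chromosome medians removed (-0.22, adjusted p = 0.0377) and with at least 10 normalized counts in every library (-0.20, adjusted p = 0.0411), so that 2 of the 10 genes were then lower in the first of these and in the chromosome setting. That filter left 0 members lower past both thresholds, 5 list genes lower, and 831 genes higher and 765 lower in all. With the replicate number as a block, Ptges2 was at -0.20 (adjusted p = 0.0346) and 2 members were lower, and the other members kept their calls. The numbers do not pair the libraries, since same-numbered libraries deviated with correlations of -0.05, -0.15 and -0.06.

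The pseudocount of 5 also moved the unlogged fold of low genes by over 1.5 times. The log2 fold changes were then -3.77 for Mgll, -3.08 for Plaat3, -1.41 for Lpcat2, -4.94 for Cbr1, -2.81 for Ptgr2, 5.17 for Ptgfr and 4.05 for Mgst2. Cbr3, listed at 0 in the libraries labelled GαqKO, moved further than these, from -7.21 to -4.93.

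Leaving out 1 library at a time gave 1426 to 1545 genes higher and 1492 to 1603 lower past both thresholds, 4 members higher in each fit and 1 to 2 lower, and 10 to 11 list genes higher and 12 to 14 lower. The log2 fold change ran from -0.30 to -0.14 for Ptges2, 2.79 to 2.84 for Ptgs1, 1.83 to 1.89 for Ptgs2, 6.19 to 6.86 for Ptges, -7.61 to -7.13 for Ptgis and 0.49 to 0.57 for Ptger4, and the Ptgs2 share differed by -16.8 to -16.2 percentage points. The causes of these differences were not tested. With 3 libraries per group, the line and the genotype cannot be told apart, and genes listed at 0 are limited by depth and by overlap with other genes.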
